A study of Mus musculus with 8 samples.

Results

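Fibril-associated collagens are collagens that do not form fibrils themselves but sit on the surface of fibrils made by other collagens. Transcripts of 7 of their genes were examined in knee joints of mice: Col9a1, Col9a2, Col9a3, Col12a1, Col14a1, Col16a1 and Col22a1. The genes were taken by name from the class, and the choice was made with earlier results of these data known. All 7 were found among the 20681 rows of the deposited table, and all 7 passed the filter on low values (10 or more normalised reads in 4 or more libraries).

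The study measured poly-A RNA of whole knee joints in 8 libraries. Of these, 4 are control and the others carry a knockout label for Loxl2, which encodes lysyl oxidase-like 2, an enzyme that oxidises lysines of collagen and so prepares them for cross-linking. Per the labels, all joints came from mice with a Cre recombinase driven by Acan, the aggrecan gene of cartilage cells, and Loxl2 alleles flanked by loxP sites. The controls are described as vehicle-treated and their library names carry LOXL2wt, while the other names carry LOXL2ko. What the knockout group received in place of vehicle, the age and the sex are not given in the sources used here. The names of all 8 libraries carry DMM, which usually stands for surgical destabilisation of the medial meniscus. Since the Cre is driven in cartilage cells, recombination in other tissues of the joint is not implied by the labels. The labels do not say that each library came from a separate animal, so p-values measure the spread between these libraries.

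In collagen chemistry, the members of the class consist of short triple helices separated by non-helical hinges, which let part of the molecule project from the fibril. Collagen IX is assembled from a chain of each of the Col9 genes and covers the thin collagen II fibrils of cartilage, where it is cross-linked to them. Collagens XII and XIV lie on collagen I fibrils of tendon, ligament, fascia and skin, collagen XVI occurs near both kinds of fibril, and collagen XXII is known from tissue junctions, above all the attachment of muscle to tendon.

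The libraries held 13991000 to 17411617 reads assigned to genes, and no pair within a group agreed within counting error (a chi-square of 19.3 to 49.8 for each degree of freedom, 12 pairs). Loxl2 itself had 282, 349, 1135 and 311 normalised reads in the controls, replicates in order, and 893, 1468, 960 and 1518 in the libraries labelled knockout, which goes against the label. Its log2 difference was 1.44 (SE 0.40, limma adjusted p = 0.0294), and the call was lost with edgeR (adjusted p = 0.0669) and DESeq2 (0.0659). It was also lost when any of control replicates 1, 2 and 4 or of knockout replicates 2 and 4 was left out (limma adjusted p of 0.0666 to 0.0849). The table counts whole genes, so reads from the part of Loxl2 that remains after recombination cannot be told from the rest. Whether the labels of the groups were exchanged was not tested, and an exchange would turn every direction given below. The groups are therefore called by their labels. Markers of the joint's tissues were present: Acan, for cartilage, ranged from 52.3 to 544, and the 16 skeletal muscle markers summed to between 1158560 and 2578160 normalised reads per library. The cartilage marker Matn3 was at 0 in control replicate 3. Control replicate 1 had the highest osteoblast score of the control group (mean log2 value of 9.30 against 6.10 to 7.76). It was also the highest control in the osteoclast, neutrophil, fat cell and chondrocyte scores. Control replicate 3 had the highest fibroblast score (12.2 against 10.8 to 11.3) and the highest tendon score of the controls. Both libraries stand apart in some of the values below.

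Of the 7 genes, 2 rose in the libraries labelled knockout and 0 fell. Col12a1 and Col16a1 were higher by 7.24-fold and 8.07-fold, while the 3 collagen IX genes, Col14a1 and Col22a1 did not pass the test (limma on log2 of the value plus 1, adjusted p under 0.05 over 14949 genes). Over all tested genes 23.2% were called by limma, 11.6% higher and 11.6% lower, 5.1% were called higher with a log2 difference of at least 1, and the groups did not overlap in 11.7% (higher) and 13.4% (lower). At an unadjusted p under 0.05, 3 of the 7 were higher and 0 lower, where 19.2% of all genes were higher and 19.2% lower. edgeR and DESeq2 each called those 3 higher and 0 lower, against 11.3% and 14.3% of all genes called higher. The median log2 difference was 0.00 against 0.70 for the 7 genes. The choice of genes was made with earlier results of these data known, so neither the count nor the median is a test of the class.

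**Figure D1:**
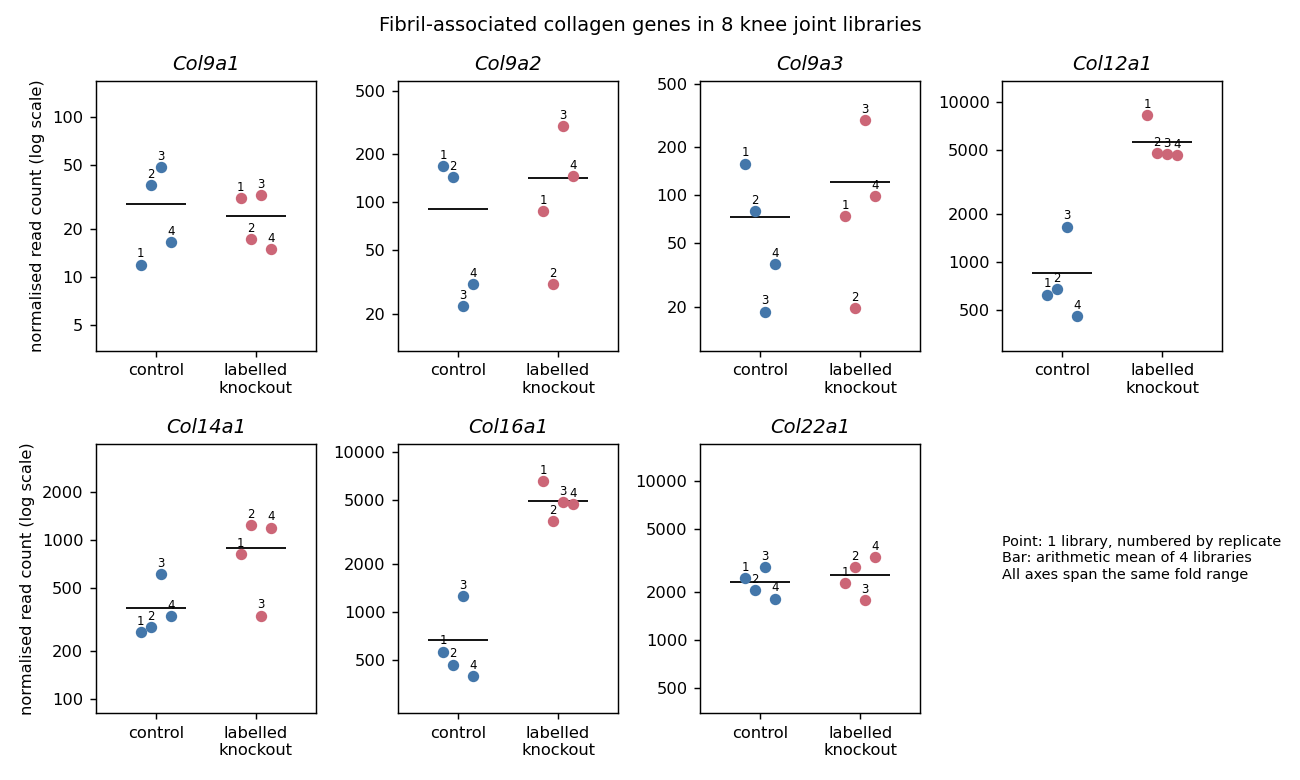
Normalised read counts (log scale) of the 7 genes in each library, with replicate numbers beside the points and the mean of 4 libraries as a bar. For Col12a1 and Col16a1 every library labelled knockout lies above every control library, and for the other 5 genes the groups overlap.

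Col16a1 encodes the chain of collagen XVI, a homotrimer made by fibroblasts and chondrocytes among other cells. In mm10 it spans chromosome 4, 130047840 to 130099283 (plus strand), with 6750 bases of annotated exonic sequence and no annotated gene overlapping it. Its normalised reads were 561, 465, 1249 and 395 in the controls and 6547, 3668, 4869 and 4697 in the libraries labelled knockout, each in the order of the replicate numbers. Control replicate 3 was the highest control and still lay well below the lowest library labelled knockout. The means were 668 ± 393 and 4945 ± 1192 (SD, n = 4 each), which differed by 3.01 on the log2 scale (SE 0.32, 95% interval 2.29 to 3.73, limma adjusted p = 0.00397). The exact two-sided permutation test gave p = 0.0286, the smallest value that 4 libraries against 4 allow. Among the 14949 tested genes this difference held place 21 in descending order.

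The stretch before the start of Col16a1 is shown because this gene had the largest difference of the 7, 3 of which (Col9a1, Col9a2 and Col16a1) were found in the RefSeq promoter table. It covers 250 bases ending at the RefSeq start, chromosome 4 from 130047590 to 130047839 on the plus strand (GRCm38.p6, the build of mm10), written 5′ to 3′ with the match to a GC box in capitals.
Col16a1: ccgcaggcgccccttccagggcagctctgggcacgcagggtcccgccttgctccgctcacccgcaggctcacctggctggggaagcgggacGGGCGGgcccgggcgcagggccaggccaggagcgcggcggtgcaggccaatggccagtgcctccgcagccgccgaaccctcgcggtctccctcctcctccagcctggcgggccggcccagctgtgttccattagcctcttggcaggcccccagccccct
Its GC content was 75.6%, against a median of 52.4% over the 32851 RefSeq windows of the same length. Both strands were searched for the GC box GGGCGG and for the TATA box TATAAA. They were also searched for ACAAAG, with ACAATG as its variant, as SOX-type motifs, and for the AP-1 type motif TGANTCA. The motifs do not contain one another. The window held 1 GC box, 159 bases before the start, and no match to the others. Of all windows, 32.7% held a GC box, 12.4% a TATA box, 25.2% a SOX-type match and 6.75% an AP-1 type match, so the single match is a common one. An antisense gene, Gm12963, starts on the opposite strand within this window, and its low counts (8.56 ± 3.24 in the controls and 16.9 ± 8.67 in the group labelled knockout, SD, n = 4 each) did not differ beyond the test's threshold (log2 difference 0.79, limma adjusted p = 0.272).

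Col12a1, the gene of collagen XII, which connects neighbouring collagen I fibrils through large globular arms, showed the same split of the groups. It spans chromosome 9, 79598991 to 79718831 (minus strand), and an antisense gene on the other strand shares none of its exonic bases. The control libraries had 623, 675, 1659 and 455 normalised reads, and those labelled knockout had 8266, 4783, 4744 and 4669. Replicate 1 of the group labelled knockout stood above the other 3, which lay close together, and control replicate 3 was again the highest control. The means were 853 ± 546 and 5615 ± 1768 (SD, n = 4 each), which differed by 2.86 on the log2 scale (SE 0.35, 95% interval 2.07 to 3.65). The limma adjusted p was 0.00397 and the exact permutation p = 0.0286, and the difference held place 31 of all tested genes. Both genes were called whichever single library was left out, with log2 differences of 2.61 to 3.24 for Col12a1 and 2.81 to 3.36 for Col16a1, the highest being without control replicate 3 for both. After subtraction of the group means, Col12a1 and Col16a1 correlated at r = 0.95 over the 8 libraries, a description of values that share library and depth.

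Col14a1 encodes collagen XIV (undulin), the nearest relative of collagen XII on collagen I fibrils, and spans chromosome 15, 55307750 to 55520803 (plus strand). Its values were 265, 284, 610 and 332 in the controls and 813, 1236, 335 and 1194 in the libraries labelled knockout. The groups overlapped because replicate 3 of the group labelled knockout lay within the range of the controls and control replicate 3 lay above it. The means were 373 ± 161 and 894 ± 419 (SD, n = 4 each), 1.18 apart on the log2 scale (SE 0.41, 95% interval 0.27 to 2.09). The call was missed by limma (adjusted p = 0.0615, exact permutation p = 0.0571) and made by edgeR (adjusted p = 0.0452) and DESeq2 (adjusted p = 0.0343). It was also made by limma without control replicate 3 (1.44, adjusted p = 0.0313) or without knockout replicate 3 (1.59, adjusted p = 0.00748). It was missed without any other library (adjusted p of 0.111 to 0.162), so Col14a1 was called under some settings and not under others.

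The balance of collagen XII to collagen XIV transcripts was compared within each library, which does not depend on how libraries were scaled. The ratio of normalised reads of Col12a1 to those of Col14a1 was 2.35, 2.38, 2.72 and 1.37 in the controls and 10.2, 3.87, 14.1 and 3.91 in the libraries labelled knockout. The 2 groups did not overlap, and the log2 ratio was higher by 1.68 in those labelled knockout (exact permutation p = 0.0286). Adjusted over the 8 ratios compared, p was 0.0762, so this ratio did not pass 0.05. The size of the ratio varied among the libraries labelled knockout, being highest in replicates 1 and 3.

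Col16a1, Col12a1 and Col14a1 were also set against Col1a1, the main chain of the collagen I fibrils on which collagens XII and XIV lie. Col1a1 itself rose, with 58034, 13234, 30458 and 13411 normalised reads in the controls and 93111, 68962, 63994 and 79975 in the libraries labelled knockout (log2 difference 1.68, SE 0.43, limma adjusted p = 0.0214). The log2 ratio of Col16a1 to Col1a1 was -5.30 ± 0.95 in the controls and -3.97 ± 0.24 in the group labelled knockout (SD, n = 4 each), a difference of 1.33. For Col12a1 to Col1a1 it was -4.98 ± 1.08 and -3.80 ± 0.25, a difference of 1.18. Neither ratio overlapped between the groups (exact permutation p = 0.0286 and adjusted p = 0.0762 for each). Part of these differences rests on control replicate 1, where Col1a1 was highest among the controls: without it they were 0.87 for Col16a1 (adjusted p = 0.114) and 0.66 for Col12a1 (adjusted p = 0.137). The ratio of Col14a1 to Col1a1 moved by -0.50, with overlapping groups (exact permutation p = 0.486, adjusted p = 0.629). It was -1.07 without control replicate 1 (adjusted p = 0.137) and -0.16 without knockout replicate 3.

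**Figure D2:**
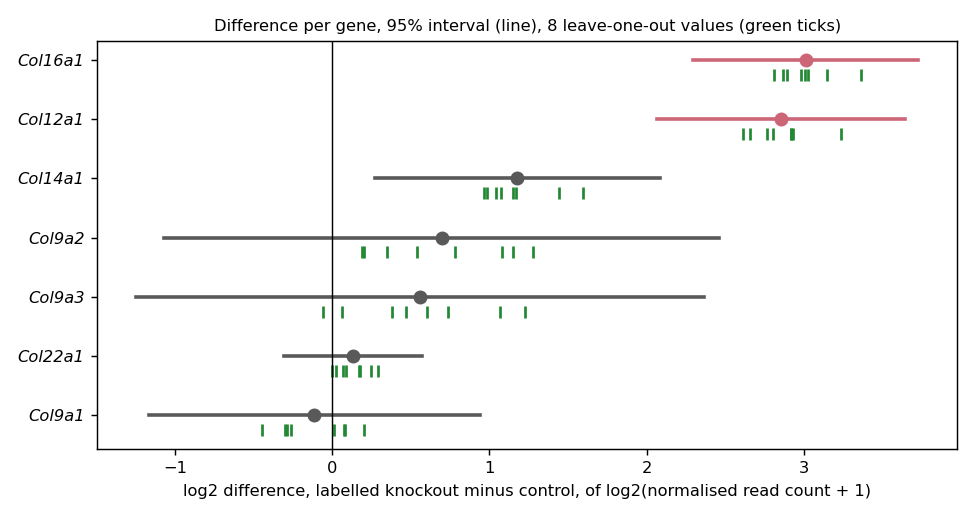
Log2 difference for each gene, labelled knockout minus control, with the 95% interval of the limma fit as a line and the 8 leave-one-out values as green ticks. The intervals of Col16a1 and Col12a1 lie above 2, and those of the collagen IX genes and Col22a1 include 0.

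Col22a1, the gene of collagen XXII at the muscle-tendon attachment, was the most abundant of the 7 per length in the controls and did not pass the test. It spans chromosome 15, 71795795 to 72034227 (minus strand), and an antisense gene shares 16 of its exonic bases. The values were 2456, 2075, 2891 and 1831 normalised reads in the controls and 2278, 2866, 1797 and 3319 in the libraries labelled knockout, so that the ranges lay almost on top of each other. On the log2 scale the groups were 0.13 apart (SE 0.20, limma adjusted p = 0.660, exact permutation p = 0.629). Its 95% interval, -0.31 to 0.57, was the narrowest of the 7 and left room for at most a 1.49-fold higher level. The markers of the tissues that meet at this attachment went in opposite directions. Of the skeletal muscle markers 7 of 16 fell (score 15.85 to 16.05 in the controls, 14.97 to 15.48 in the group labelled knockout). Of the tendon markers 4 of 6 rose by limma, 3 by edgeR and 6 by DESeq2. The tendon scores, 7.32 to 8.394 and 8.391 to 9.55, overlapped between the groups. One of these tendon markers, Fmod, is also counted below among the proteins that share the fibril surface. The part of the muscle and tendon shifts in the level of Col22a1 was not tested, and in bulk tissue fewer cells of a type and less RNA per cell cannot be told apart.

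The collagen IX genes were expressed at low levels and varied more within the groups than between them. Col9a2 (chromosome 4, 121039385 to 121055322, plus strand) had 168, 144, 22.4 and 30.7 normalised reads in the controls and 87.8, 30.8, 301 and 146 in the libraries labelled knockout. For Col9a3 (chromosome 2, 180597790 to 180622189, plus strand) these were 158, 79.7, 18.7 and 37.2, then 73.8, 19.7, 296 and 98.6. Within each group both genes were lowest in control replicate 3 and knockout replicate 2, and over all libraries both were highest in knockout replicate 3, a 13.4-fold and 15.8-fold span over the 8 libraries. The opposite-strand gene Tcfl5 shares 234 exonic bases with Col9a3 (6.07% of its exonic length), and the use of strand in counting is not given in the sources used here.

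The differences between the groups were small beside this span. The log2 difference was 0.70 for Col9a2 (SE 0.79, 95% interval -1.07 to 2.46, limma adjusted p = 0.551) and 0.56 for Col9a3 (SE 0.81, -1.25 to 2.37, adjusted p = 0.647). These intervals allow a rise or a fall of more than 2-fold, so a change of that size was not detectable here. Without knockout replicate 3 the values were 0.19 and -0.06, without knockout replicate 2 they were 1.27 and 1.22, and without control replicate 1 they were 1.15 and 1.06. Without control replicate 3 they were 0.20 and 0.06.

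Col9a1, whose chain carries the large globular end of collagen IX, did not follow the other chains. It spans chromosome 1, 24177610 to 24252684 (plus strand), and was the lowest of the 7, at 11.9, 37.3, 48.6 and 16.4 normalised reads in the controls and 30.9, 17.1, 32.6 and 14.96 in the libraries labelled knockout (11 to 52 reads each). Its highest value was in control replicate 3, where Col9a2 and Col9a3 were at their lowest. The log2 difference was -0.12 (SE 0.47, 95% interval -1.17 to 0.94, limma adjusted p = 0.882). The ratio of Col9a1 to Col9a2 ran from 0.0765 in control replicate 1 to 2.12 in control replicate 3, while that of Col9a2 to Col9a3 stayed between 0.828 and 1.80 in all 8 libraries. None of the ratios within collagen IX passed the test between the groups (exact permutation p of 0.571 to 0.629, adjusted p = 0.629 for each), nor did that of Col9a1 to Col2a1, the gene of the collagen II fibril (log2 difference -0.91, exact permutation p = 0.486, adjusted p = 0.629). Single libraries moved these values: Col9a1 to Col9a2 differed by -0.81, by -1.60 without control replicate 1 and by -0.000786 without control replicate 3. Col9a1 to Col2a1 differed by -1.93 without control replicate 1 and by -0.38 without control replicate 4.

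Across the 8 libraries, Col9a2 and Col9a3 correlated with each other (Pearson r = 0.965, exact permutation p = 4.96e-05, Spearman rho = 0.976, exact permutation p = 0.000397) and with the chondrocyte score, the mean log2 value of 11 tested cartilage markers without collagen IX. Against that score r was 0.906 for Col9a2 (exact permutation p = 0.00151, rho = 0.929, p = 0.00223) and 0.856 for Col9a3 (exact permutation p = 0.00759, rho = 0.905, p = 0.00456). For Col9a1 it was -0.225 (exact permutation p = 0.566, rho = -0.310, p = 0.462). Adjusted over 6 relations, p was 0.000298, 0.00454 and 0.0152 for the first 3 named and 0.835 for Col9a1 against the score. Correlations of the 7 genes with each other and with other marker scores were also computed, after subtraction of the group means. They lie outside this adjustment, so these p-values do not cover every correlation computed. Without the 2 libraries farthest from the median score, control replicates 3 and 4, r was 0.835 for Col9a2, 0.931 for Col9a3 and 0.04 for Col9a1. Without control replicate 3 and knockout replicate 3, r between Col9a2 and Col9a3 was 0.931. The remaining 2 relations were those of Col9a1 with Col9a2 (r = -0.0915, exact permutation p = 0.835, rho = -0.333, p = 0.428) and with Col9a3 (r = -0.140, exact permutation p = 0.737, rho = -0.357, p = 0.389), with an adjusted p of 0.835 for each. Without the 2 farthest libraries these were 0.228 and -0.0611. The groups differed in sign: r of Col9a1 with Col9a2 and Col9a3 was -0.373 and -0.642 within the controls. Within the group labelled knockout it was 0.468 and 0.570, each from 4 libraries. Of the cartilage markers, 1 of 11 tested rose (Hapln1, the link protein gene, log2 difference 1.28, limma adjusted p = 0.0165), and the score ran from 6.09 to 7.96 in the controls and from 7.03 to 8.09 in the group labelled knockout. How much the amount of cartilage in each joint sample set the collagen IX values was not tested.

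**Figure D3:**
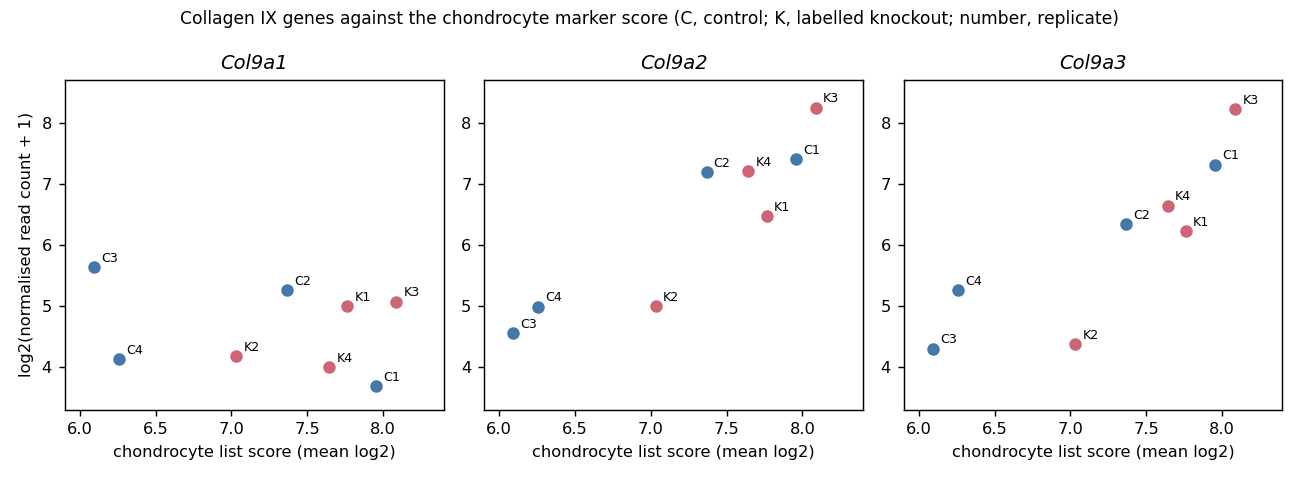
Log2 values of the collagen IX genes against the chondrocyte marker score in 8 libraries (C, control; K, labelled knockout; number, replicate). Col9a2 and Col9a3 climb with the score (r = 0.906 and 0.856), Col9a1 does not (r = -0.225), and both groups are spread along the axis.

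The annotation gives Col9a1 more than one start, and the deposited count is a single value per gene that pools them. The stretches before both RefSeq starts are shown because a gene-level count cannot tell which of them was in use. The upstream window is chromosome 1 from 24177360 to 24177609 and the downstream window, inside the gene, is chromosome 1 from 24194953 to 24195186, which stops where annotated exonic sequence begins (both plus strand, GRCm38.p6, 5′ to 3′, with nothing in capitals since no searched motif matched).
Col9a1 upstream: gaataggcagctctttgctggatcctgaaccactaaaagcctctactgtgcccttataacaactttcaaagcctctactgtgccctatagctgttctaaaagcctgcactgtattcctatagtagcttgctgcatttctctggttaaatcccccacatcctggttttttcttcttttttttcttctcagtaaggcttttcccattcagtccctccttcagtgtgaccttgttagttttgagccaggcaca
Col9a1 downstream: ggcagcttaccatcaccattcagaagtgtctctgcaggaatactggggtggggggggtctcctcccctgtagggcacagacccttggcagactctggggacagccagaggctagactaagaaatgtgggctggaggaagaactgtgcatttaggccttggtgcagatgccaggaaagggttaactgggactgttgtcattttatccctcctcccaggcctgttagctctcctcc
The GC content was 43.6% upstream and 55.6% downstream, against medians of 52.4% and 52.1% over all windows of 250 and 234 bases, and neither held a CpG, whereas the window of Col16a1 held 21. That no SOX-type match was found says only that these letters are not in these windows.

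Levels of different genes were compared per kilobase of annotated exonic sequence. In the controls the order was Col22a1 (251 ± 50.3 normalised reads per kb, SD, n = 4), Col16a1 (98.9 ± 58.3), Col12a1 (56.0 ± 35.8), Col14a1 (53.1 ± 22.9), Col9a2 (29.5 ± 24.4), Col9a3 (19.0 ± 16.1) and Col9a1 (5.64 ± 3.42). Of the neighbours in this order, Col12a1 lay above Col14a1 in 3 of 4 libraries Col14a1 above Col9a2 in 2 of 4 and Col9a3 above Col9a1 in 3 of 4, so those places are not settled. In the group labelled knockout Col16a1 came first (733 ± 177 per kb), above Col12a1 (369 ± 116) in 4 of 4 libraries, and Col22a1 (279 ± 72.4) came after both, below Col12a1 in 3 of 4. Col14a1 followed at 128 ± 59.7 per kb, above Col9a2 (45.7 ± 37.6) in 3 of 4 libraries. The order of Col16a1 and Col12a1 rests on their exonic lengths (6.75 and 15.2 kb). Before division by length, Col12a1 had more normalised reads than Col16a1 in every control library and in knockout replicates 1 and 2. The lengths join the exons of all annotated transcripts, and which transcripts were in use was not tested.

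The make-up of the class differed accordingly. Per kb, Col22a1 supplied 43.8% to 55.7% of the summed level of the 7 genes in the control libraries and 12.8% to 22.8% in those labelled knockout. The share of Col16a1 was 15.2% to 25.8% and 39.9% to 50.3%, and that of Col12a1 was 7.77% to 15.2% and 19.1% to 28.1%. The summed level was 358 to 717 normalised reads per kb in the controls and 1364 to 1930 in the group labelled knockout.

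**Figure D4:**
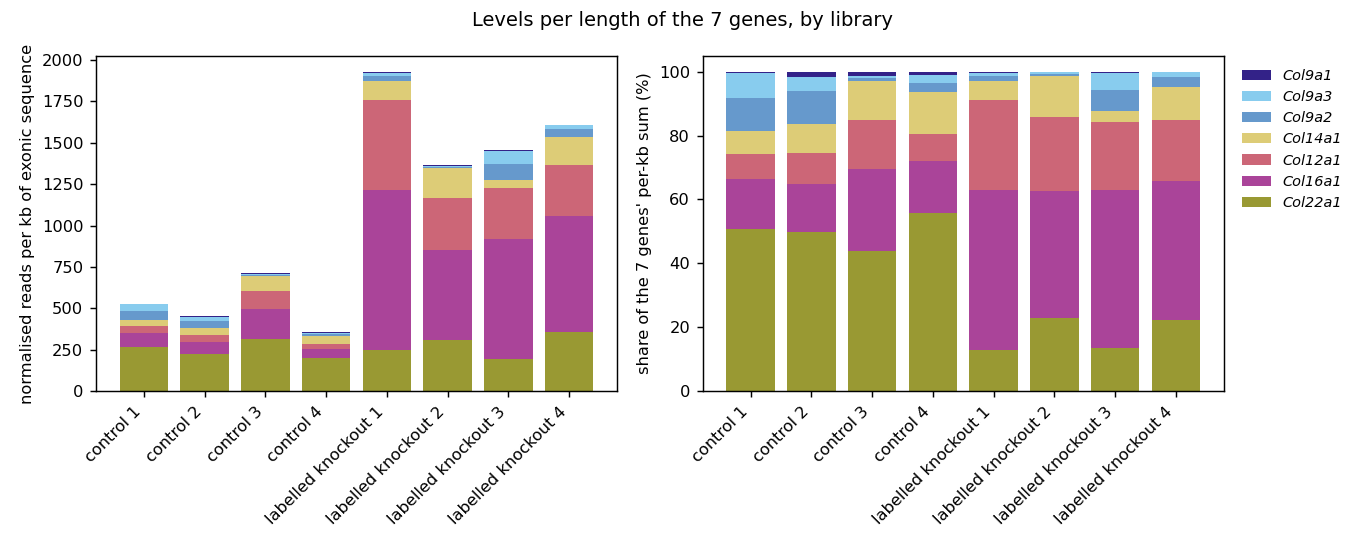
Normalised reads per kb of exonic sequence of the 7 genes stacked for each library (left) and as a share of their sum in percent (right). Col22a1 is the largest part in each control library, and Col16a1 in each library labelled knockout.

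Of the class outside these 7 genes, Col20a1 had 90.9, 113, 64.5 and 55.9 normalised reads in the controls and 67.8, 61.6, 128 and 75.7 in the libraries labelled knockout (log2 difference 0.03, limma adjusted p = 0.946). Col19a1 had at most 9.86 normalised reads in any library and was not tested.

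Among the fibril-forming collagens on which the class sits, 7 of 11 tested genes rose and 0 fell, with a median log2 difference of 1.67 beside 0.00 for all tested genes. The count was 3 without knockout replicate 4 and 4 without control replicate 2, control replicate 4 or knockout replicate 1. Those of smallest p were Col5a1 (1.96, adjusted p = 0.00724), a collagen V chain that starts and limits the width of collagen I fibrils, Col27a1 (1.67, adjusted p = 0.0119) and Col11a1 (2.17, adjusted p = 0.0144), a collagen XI chain, all by limma and all with groups that did not overlap. Col2a1, the partner of collagen IX, did not pass the limma test at a log2 difference of 0.79 (adjusted p = 0.441). Its normalised reads ran from 146 to 2721 in the controls and from 658 to 1528 in the libraries labelled knockout. Its highest library was control replicate 1 and its lowest control replicate 4, unlike those of the collagen IX genes. Col5a3, the most abundant of those not called, differed by 1.19 (limma adjusted p = 0.0991).

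Proteins that share the fibril surface with the class gave 5 rises among 10 tested genes, with a median of 1.07. The count was 2 without control replicate 2 or 4 and 3 without knockout replicate 1, 2 or 4. Fmod, fibromodulin, which binds collagen I and guides fibril width, rose from 2707 ± 1090 to 7364 ± 993 normalised reads (SD, n = 4 each; log2 difference 1.51, limma adjusted p = 0.00462). Lum, lumican, of the same family, rose by 2.24 (adjusted p = 0.0120) and Matn4, a matrilin, by 1.13 (adjusted p = 0.0239), both by limma. Bgn, biglycan, differed by 1.03 without passing the limma test (adjusted p = 0.0678). Matn1 was not analysed here.

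Of the collagen receptors 2 of 7 tested genes rose, with a median of 0.53, where 11.6% of all tested genes were called higher. Leaving out a library gave 1 (knockout replicate 2 or 4) to 4 (control replicate 1 or knockout replicate 3). The 2 called with all libraries were Itga11, the integrin chain for collagen on fibroblasts (log2 difference 1.71, limma adjusted p = 0.00422), and Ddr2, a receptor kinase for fibrillar collagen (1.06, adjusted p = 0.0200). Itgb1, the shared integrin beta chain, differed by 0.29 and was not called (limma adjusted p = 0.132).

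The genes that make collagen chains ready for secretion gave 12 rises among 17 tested, with a median of 0.74. Ppib, a prolyl isomerase of the endoplasmic reticulum, rose by 0.95 (limma adjusted p = 0.00456), P4ha3, a subunit of prolyl hydroxylase, by 2.25 (adjusted p = 0.00554) and Serpinh1, the collagen chaperone HSP47, by 1.34 (adjusted p = 0.00556). Mia3, needed for the export of large collagen cargo, went the other way without passing the limma test, at 1477 ± 144 and 1217 ± 77.5 normalised reads (SD, n = 4 each; log2 difference -0.28, adjusted p = 0.0527), with groups that did not overlap.

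Of the 5 lysyl oxidase genes 4 rose: Loxl2 as above, Lox, the founding member (2.03, limma adjusted p = 0.00631), Loxl1 (1.26, adjusted p = 0.0131) and Loxl3 (1.03, adjusted p = 0.0197). Loxl4 was not called (0.89, limma adjusted p = 0.113). The count of 4 became 2 without control replicate 2 or knockout replicate 2 or 4. Of the SOX factors that drive cartilage genes including those of collagens II and IX, Sox6, which is also expressed in muscle fibres, fell by 0.67 on the log2 scale (limma adjusted p = 0.00561), and neither Sox5 (0.69, adjusted p = 0.141) nor Sox9 (0.32, adjusted p = 0.353) was called. Over the 7 lists together, 30 of 54 tested genes were higher and 1 was lower, against 11.6% higher and 11.6% lower of all tested genes. Without single libraries the 30 became 18 (knockout replicate 4), 19 (control replicate 2) or 20 (control replicate 4). In the same fits the genes called higher in the whole table went from 1732 to 831, 974 and 1154. They were 1204 and 1147 without knockout replicates 1 and 2. The lower counts given for the lists above thus came from fits with fewer calls in the whole table.

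**Figure D5:**
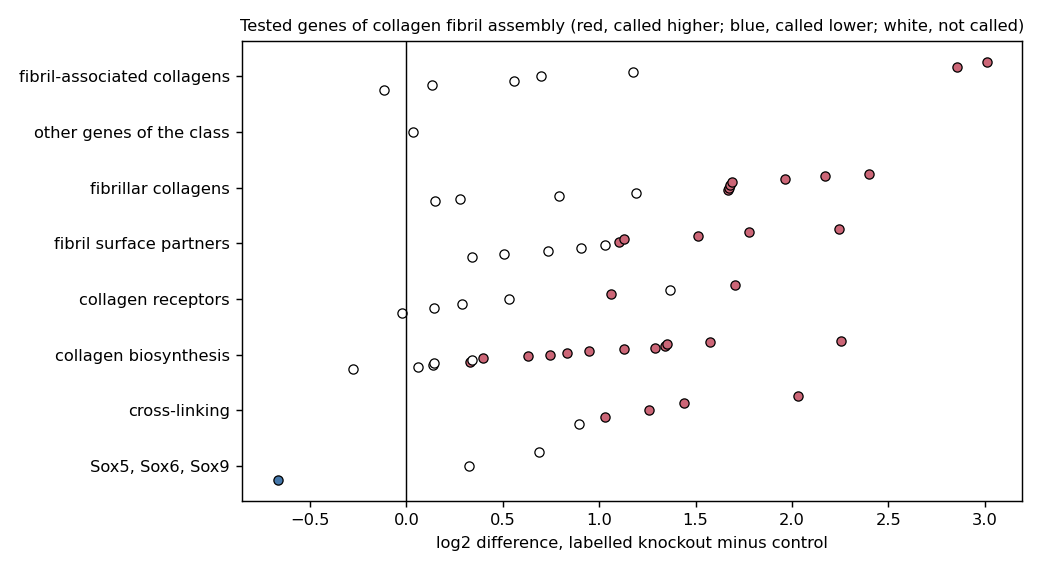
Log2 differences of the tested genes of each list (red, called higher by limma; blue, called lower; white, not called). Col12a1 and Col16a1 lie to the right of every other gene drawn here, the next being Col3a1 at 2.40.

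Markers of several cell types also differed between the groups, where limma called 11.6% of all tested genes higher and 11.6% lower. Of the fibroblast markers 8 of 9 rose, and their summed normalised reads were 38541 to 119557 in the controls and 168103 to 271068 in the group labelled knockout. Of these 9, 5 (Col1a1, Col1a2, Col3a1, Dcn and Lum) also stand on the fibril lists above and supply 94.2% to 98.0% of the sum. The other 4 (Pdgfra, Pdgfrb, Postn and Thy1), of which 3 rose, summed to 1617 to 3872 and 9704 to 11916. All 8 macrophage markers rose (2817 to 6668 and 9880 to 14084), as did 7 of 8 osteoclast markers (1868 to 14065 and 10270 to 39329) and 4 of 7 osteoblast markers (1074 to 6987 and 5728 to 12378). edgeR and DESeq2 each called 4 of the osteoclast and 2 of the osteoblast markers higher, and they called 12 and 13 of the 16 muscle markers lower against 7 by limma. The summed skeletal muscle markers were 2380440 to 2578160 and 1158560 to 1621510, while limma called 0 of 7 erythroid, 0 of 8 neutrophil and 0 of 6 fat cell markers. At an unadjusted p under 0.05, 7, 1 and 0 of these were lower. edgeR called none of them and DESeq2 called 1 fat cell marker lower. The summed ranges were 16755 to 98968 and 4040 to 42558 for the erythroid, 1389 to 5671 and 1113 to 2707 for the neutrophil and 2706 to 5167 and 3310 to 4352 for the fat cell markers, and none of the markers but Matn3 was at 0 in any library. The part of these cell types in the result was not tested. Of the variance of the muscle score, 85.1% lay between the groups. With that score as a covariate limma called 0 genes of the table. At an unadjusted p under 0.05 there were 616 of 14949 genes (294 higher, 322 lower), a smaller share than 0.05. The log2 differences in that fit were 3.07 (SE 0.96, unadjusted p = 0.0113) for Col12a1 and 2.996 (SE 0.88, unadjusted p = 0.00790) for Col16a1, with an adjusted p of 0.993 for both. In the same fit Col14a1 was at -0.82 (unadjusted p = 0.355) and Col22a1 at -0.92 (unadjusted p = 0.0384), with an adjusted p of 0.993 for both. There Col9a1 was at 1.80 (SE 1.08), Col9a2 at 2.14 (SE 2.10) and Col9a3 at 2.09 (SE 2.15), with an adjusted p of 0.993 for each.

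For each of the 7 genes, the genes with the most similar pattern were found by the Pearson correlation of log2 values after subtraction of the group means, over the 8 libraries and 11640 tested genes with a mean of at least 50. They rest on 8 libraries that share tissue make-up and depth, and are given as a description. For Col12a1 the closest was Col8a2, a short-chain collagen (r = 0.98), followed by Rab27b and 1500004A13Rik, and Col8a2 was itself higher in the libraries labelled knockout (191 and 1092 normalised reads on average, log2 difference 2.59, limma adjusted p = 0.00397). For Col16a1 they were Ankrd6 (0.98), Prkcz and Nsg1, for Col14a1 Jkamp (0.99), Prss23 and Egfr, and for Col22a1 Arl6 (0.99), Ms4a7 and Chst1. For Col9a1 they were Lamtor2 (0.98), Dusp11 and Tmem47, for Col9a2 Med24 (0.99), Zfp692 and Plekho1, and for Col9a3 Ralgapa2 (0.97), Vps33a and Pced1a. The lists of the 3 collagen IX genes shared no gene.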

How the data were processed

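RNA of whole knee joints was measured by poly-A sequencing in 8 libraries. The values deposited by the authors are a normalised signal, the reads of a gene divided by a size factor of its library. HISAT2, featureCounts and build mm10 are named in the submitters' processing notes and DESeq2 in the series' design text. Versions, annotation, strand use and filters are not given in the sources used here. In every column 100% of the values under 1000 were whole multiples of 1 step (tolerance 0.01 reads), and these steps were the reciprocals of recomputed size factors (0.913 to 1.17), which gave back whole reads. Where the step was close to 1 (1.01 in control replicate 2, 0.997 in knockout replicate 1) the pattern tells little by itself.

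Genes reaching 10 in 4 or more libraries were tested with limma 3.58.1 (pseudocount 1, intensity trend), with Benjamini-Hochberg adjustment and calls under 0.05. Fold changes are on the log2(value + 1) scale. Alternatives were edgeR 4.0.16 and DESeq2 1.42.0 on recovered reads, other scalings, pseudocounts and filters, a replicate block, a muscle covariate and leaving out each library. Ratios were compared by exact two-sided permutation over 70 assignments. The scripts were tested on simulated counts. Coordinates and exonic lengths came from GENCODE M21 (99.2% of rows matched by name), upstream sequences from RefSeq. The 7 genes and all lists were chosen with earlier results of these data known. By rule, the text names these genes, Loxl2, Acan, the rest of the class, ratio partners, up to 3 called genes of smallest p and the most abundant uncalled gene per list, and the 3 most similar genes. Other names were chosen after their values were seen.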

Additional observations from a re-analysis of the deposited data

Results flagged for a closer look

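Among the 30 sets of 4 libraries examined for a library far from the others (7 genes and 8 ratios in each group), 2 held such a value. Chance gives about 1 set in 20, so a count of 2 is near that rate. Col12a1 in replicate 1 of the group labelled knockout, at 8266 normalised reads, lay far above the next value of 4783, and this gap made up 0.968 of the group's range. The log2 ratio of Col14a1 to Col1a1 in control replicate 1, at -7.77, lay far below the next value of -5.64 (0.874 of the range). In the same library the fibroblast score was not the highest of the controls. Its osteoblast (9.30), osteoclast (8.33), neutrophil (9.08), fat cell (8.89) and chondrocyte (7.96) scores were the highest of the controls. A link of any of these to the ratio was not tested.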

How the results depend on the processing

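Col12a1 and Col16a1 kept their direction under all 19 alternatives and their call under 18. The exception was the skeletal muscle covariate, under which limma called 0 of the 7 genes and 0 of the 54 genes on the lists. At an unadjusted p under 0.05 in that fit, 2 of the 7 were higher, Col22a1 was lower, and 0 on the lists passed. Of all 14949 genes, 294 were higher and 322 lower at the same threshold. Leaving out a library gave 831 to 1840 genes of the table called higher (1732 with all libraries). Of the lists 18 to 34 genes were called higher (30 with all libraries), and of the class 2 to 3 genes. The third gene was always Col14a1, which was also called under edgeR, DESeq2 and a scaling on the total of genes outside muscle, blood and the 50 highest (1.33, adjusted p = 0.0452), an alternative chosen after seeing the data. That scaling moved the median of all genes to 0.15 and the calls to 2722 higher and 777 lower, against 1732 and 1729. Under it Col9a1 turned to 0.03. Col9a1 was also positive without control replicate 2 (0.08) or 3 (0.20) and without knockout replicate 2 (0.01) or 4 (0.07). With the muscle covariate Col9a1 was at 1.80. Same-numbered libraries did not deviate together (r from -0.233 to 0.213), so the replicate numbers were not taken to pair them; with the replicate block 2018 genes were called in place of 3461, the 7 genes kept their calls (Col12a1 adjusted p = 0.0140) and Loxl2 lost its call (0.0513). The exact test by paired sign flips cannot go below p = 0.125 with 4 pairs. Since the smallest exact p with all libraries is 0.0286 (0.125 paired), an adjusted p under 0.05 over the 8 ratios was nearly or wholly out of reach, so the lack of a call says little. Over the alternatives that left out a library, Col12a1 to Col14a1 ran from 1.33 to 1.95, Col12a1 to Col1a1 from 0.66 to 1.44 Col16a1 to Col1a1 from 0.87 to 1.57, Col14a1 to Col1a1 from -1.07 to -0.16, Col9a1 to Col2a1 from -1.93 to -0.38, Col9a1 to Col9a2 from -1.60 to -0.000786, Col9a1 to Col9a3 from -1.51 to 0.14 and Col9a2 to Col9a3 from -0.03 to 0.34. At 11 to 52 reads a library, counting error limits Col9a1 most.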
